A study of Mus musculus with 2 samples.

Results

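The subunits of the nucleosome remodelling and deacetylase complex (NuRD) are described here by the binding of MAFK near their genes. The 10 genes are Chd3, Chd4, Hdac1, Hdac2, Mta1, Mta2, Mta3, Mbd3, Gatad2a and Gatad2b. Regions were assigned to them by position: a region of the authors' optimal list counted when its summit, the base of highest signal, lay within 50 kb of any GENCODE vM21 transcription start site (TSS) of a member. This gave 28 of the 16865 optimal regions. MAFK was mapped by chromatin immunoprecipitation with sequencing (ChIP-seq) in ES-E14, a mouse embryonic stem cell line of strain 129/Ola from a male embryo, in 2 biological replicates of a single group. The labels name no treatment or genetic change and give both replicates the same biosample, so the spread between them may be partly technical. Control libraries were not analysed here, and the depth of sequencing is unknown.

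NuRD joins an ATP-driven nucleosome remodeller to histone deacetylases, so that a single assembly can both move nucleosomes and remove acetyl groups from histones. The CHD proteins are the remodelling motors, HDAC1 and HDAC2 are the deacetylases, the MTA proteins form the scaffold that holds the deacetylases, MBD3 links the parts, and the GATAD2 proteins connect MBD3 to the CHD motor. In mouse embryonic stem cells the complex is known for damping pluripotency genes, and cells without Mbd3 differentiate poorly. MAFK is a small MAF factor that lacks an activation domain of its own. It binds DNA as a homodimer or with a CNC partner such as NRF2 or BACH1. With a CNC partner it binds sites that join a MAF half-site to an AP-1-like half-site.

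A MAFK summit lay within 50 kb of 9 of the 10 genes, and Hdac1 was the exception. Among all protein-coding genes the share was 59.3% (13003 of 21938), and among those with 4 to 9 annotated TSSs, the range of the members, it was 70.2%. Within 10 kb the count was 7 of 10 genes, against 26.9% of all genes and 34.9% of those with 4 to 9 TSSs. Hdac2 and Mta2 entered that count only through TSSs of other than protein-coding transcripts. Their nearest regions were 26525 bp and 11970 bp from the TSS of a protein-coding one. The shares of all genes use TSSs of every transcript as well. Within 1 kb the count was 2 of 10 (Gatad2a and Mbd3), against 8.66% of all genes and 12.2% of those with 4 to 9 TSSs. The position of the regions chose them and the genes were picked with these results known, so the counts are a description. The 28 regions had a median signal value of 27.4, against 27.9 over the whole optimal list, and 14 of them were at or above the median of the list. The regions of the members were therefore of middling strength as a group, with a single extreme one at Gatad2a. The signal value is the authors' own score per region, its scale is not stated, and it ranks regions within a list.

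Most of the 28 regions were closer to another gene than to the NuRD gene that brought them in. The nearest TSS of a protein-coding gene belonged to the member in 10 regions and to another gene in 18. TSSs of every transcript of these genes were used, also of transcripts that are not protein-coding, as at Hdac2. The matching share in the windows of other genes was not counted, so these counts describe the 28 regions only. Of the 28 summits, 13 (46.4%) lay within 1 kb of some annotated TSS, against 19.9% of the 11986 optimal regions within 50 kb of any protein-coding gene and 15.3% of all. The remaining ones were intronic (8) or intergenic (7), and none was exonic. Among the 13, only 2 were within 1 kb of a TSS of a member, at Gatad2a and Mbd3. The others were at TSSs of other genes, among them neighbouring regions at Gapdh and overlapping ones at Tut1. The regions of signal 119.0 and 26.6 near Chd3 counted only through TSSs of genes that are not protein-coding. The windows of the members held 20.8 regions per Mb, against 8.95 per Mb over the windows of all protein-coding genes. Overlapping and neighbouring regions count separately in both densities. Genes with as many TSSs as the members were not set apart for this density. Assignment to a gene is by distance alone.

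**Figure D1:**
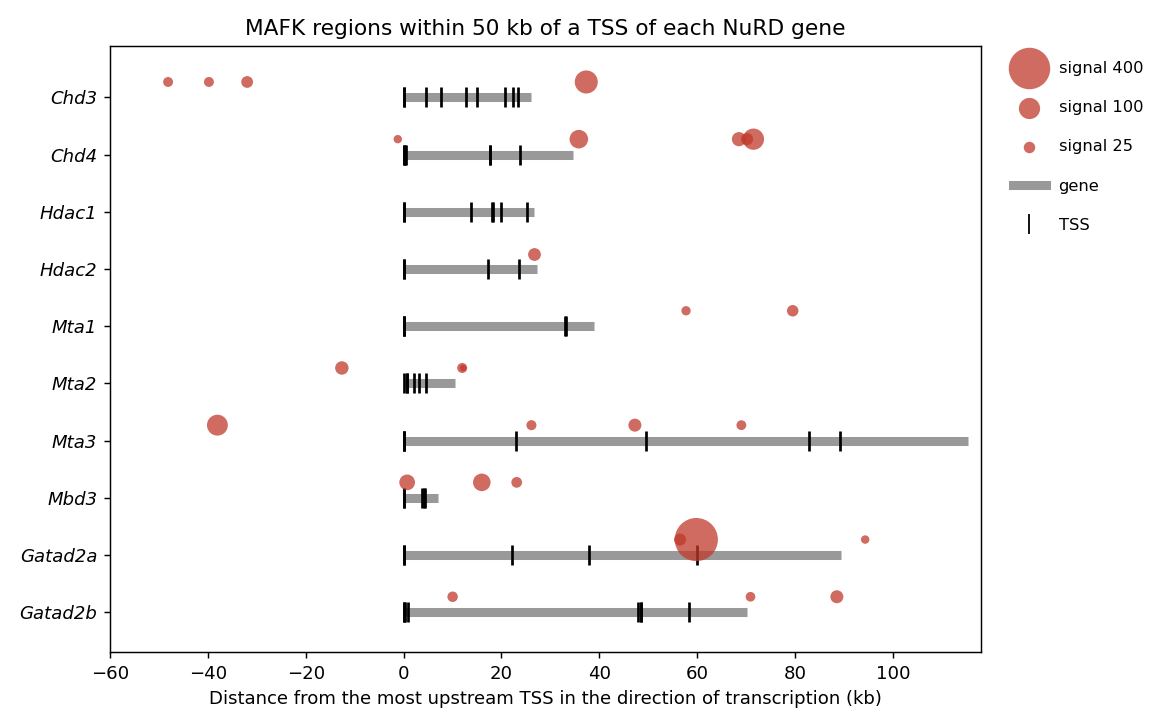
Map of the 10 NuRD genes, each drawn from its most upstream TSS in the direction of transcription. The x axis is distance in kb, grey bars are genes, black ticks are annotated TSSs, and red circles are MAFK regions with an area that grows with the signal. Gatad2a holds the largest circle (signal 433.1), at its most downstream TSS, and Hdac1 has none.

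The sequences around the summits of the stronger regions show which of them carry an exact match to one of the sites named below. Each is 101 bases of the plus strand of GRCm38 centred on the summit, except that of Mta2, which is kept to 30 bases because its window lies in an untranslated region of Rom1. They come from the strongest region of each member with one and from every other region at or above the median signal of the list. The sites were searched on both strands, so a site on the minus strand is printed as its reverse complement. In the following 5, capitals mark the NFE2-type composite element, a 10-base site that joins an AP-1 site to a MAF half-site.
Chd3 (11:69332033-69332133): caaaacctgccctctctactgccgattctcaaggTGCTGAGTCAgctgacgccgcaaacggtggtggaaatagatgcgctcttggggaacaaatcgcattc
Chd4, strongest (6:125167415-125167515): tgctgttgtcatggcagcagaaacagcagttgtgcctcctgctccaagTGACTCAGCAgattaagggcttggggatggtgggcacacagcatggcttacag
Hdac2 (10:37001045-37001145): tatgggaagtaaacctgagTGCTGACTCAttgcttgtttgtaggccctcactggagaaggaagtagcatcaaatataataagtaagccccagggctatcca
Mta2 (19:8929228-8929257): gcaggcaggaTGCTGAGTCAgcccagcctg
Mta3, strongest (17:83668066-83668166): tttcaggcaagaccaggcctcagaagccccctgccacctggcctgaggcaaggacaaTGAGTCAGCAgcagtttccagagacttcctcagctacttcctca

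In the next ones, capitals mark a shorter site: the antioxidant response element core (ARE core, TGACNNNGC or TGAGNNNGC on either strand) or, at Mbd3 on chromosome 10 from 80383525, the MAF core TGCTGA, read on the minus strand. They are shown because the strongest region of all, at Gatad2a, has such a site and no full composite element.
Gatad2a, strongest (8:69936521-69936621): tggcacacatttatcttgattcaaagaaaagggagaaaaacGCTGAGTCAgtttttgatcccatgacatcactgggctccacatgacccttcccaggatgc
Chd4, region of signal 41.3 (6:125164456-125164556): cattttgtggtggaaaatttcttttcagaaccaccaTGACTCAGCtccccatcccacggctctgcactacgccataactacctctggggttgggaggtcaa
Chd4, region of signal 28.8 (6:125166098-125166198): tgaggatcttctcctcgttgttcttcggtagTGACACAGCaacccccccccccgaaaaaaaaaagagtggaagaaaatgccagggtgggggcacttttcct
Mta1 (12:113177739-113177839): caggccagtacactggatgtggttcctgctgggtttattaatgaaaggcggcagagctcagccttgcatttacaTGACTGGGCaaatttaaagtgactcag
Mbd3, strongest (10:80383525-80383625): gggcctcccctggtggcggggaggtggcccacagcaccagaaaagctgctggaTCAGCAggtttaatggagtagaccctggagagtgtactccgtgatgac
Mbd3, in the gene (10:80398776-80398876): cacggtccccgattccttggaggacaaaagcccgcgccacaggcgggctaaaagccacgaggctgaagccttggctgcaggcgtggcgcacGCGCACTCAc

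The last 4 hold none of these sites within the window and are all in lower case. They are shown to set a bound region without an exact match beside those that have one. Only exact matches were marked, so a looser match may remain in these windows.
Chd4, at Nop2 (6:125131733-125131833): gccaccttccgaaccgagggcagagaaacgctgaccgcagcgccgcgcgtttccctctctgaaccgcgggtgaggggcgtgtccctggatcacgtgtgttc
Mta3, in an intron (17:83753375-83753475): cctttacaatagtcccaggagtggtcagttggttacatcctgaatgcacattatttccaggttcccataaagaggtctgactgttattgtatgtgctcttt
Gatad2a, second (8:69939844-69939944): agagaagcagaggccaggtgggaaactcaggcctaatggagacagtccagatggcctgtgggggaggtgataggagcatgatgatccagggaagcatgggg
Gatad2b (3:90381662-90381762): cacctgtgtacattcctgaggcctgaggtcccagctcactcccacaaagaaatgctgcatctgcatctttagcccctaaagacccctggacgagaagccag

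The GATAD2 genes encode the adaptors that hold the CHD motor on the complex, and the pair had very different highest signals. Gatad2a had the region of rank 9 of 16865 in the optimal list, on chromosome 8 from 69936377 to 69936743, with a signal value of 433.1. Its summit lay inside the gene, 45 bp upstream of the most downstream of its TSSs, that of a protein-coding transcript. In the replicates' relaxed lists, which hold regions together with background, the signal was 228.8 in replicate 1 and 201.9 in replicate 2. These were rank 9 of 264306 and rank 12 of 300000, so both replicates placed the region at the very top. Both thresholded lists held it too, at 227.2 in replicate 1 and 201.9 in replicate 2.

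The site at this summit was close to a full composite element and did not match it. The best match, TGACTCAGCG on the minus strand, carried the substitution A10G, with positions counted from 1 at the 5′ end of the element. Its centre was 5.5 bp from the summit. Of the 12082 optimal regions without a composite element in the window, the Gatad2a region had the highest signal, and it also ranked 1 of the 3830 regions whose best match to the T-MARE palindrome, the long symmetric MAF site, had 3 mismatches. The region was noticed for its signal, so these ranks are a description.

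The other Gatad2a regions were far lower. A second region, in an intron 3368 bp upstream of the same TSS, had a signal of 28.3, just above the median of the list, and relaxed signals of 13.9 in replicate 1 and 14.1 in replicate 2. The weakest, with a signal of 10.7, lay 117 bp from the TSS of Tssk6, a testis kinase gene, and 34459 bp from Gatad2a. Neither of these was in a replicate's thresholded list. Around the paralogue Gatad2b there was no region above 33.7. Its strongest, on chromosome 3 from 90381564 to 90381859, lay 30294 bp from a Gatad2b TSS and 7269 bp from that of Slc27a3, a fatty acid transport gene, and was in the list of replicate 2 alone (19.3). Its intronic region 9113 bp from a TSS had a signal of 19.8 and an ARE core, and one at 12642 bp had a signal of 15.9 and the site TGACACAGCA, with the substitution T5A. The highest signals at Gatad2a and Gatad2b thus stood at rank 9 and rank 7659 among the 21938 protein-coding genes.

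The CHD genes encode the remodelling motors, and their stronger regions lay beside neighbouring genes. The strongest region in the Chd3 window, on chromosome 11 from 69331989 to 69332199, had a signal of 119.0, with 60.5 in replicate 1 and 58.3 in replicate 2. It held a composite element, TGACTCAGCA on the minus strand, 11.5 bp from the summit, with 1 mismatch to the T-MARE palindrome. Its summit was in Kcnab3, a potassium channel subunit gene, 1759 bp from the nearest annotated TSS of Kcnab3. A TSS of a gene that is not protein-coding lay within 1 kb of it. The nearest Chd3 TSS, that of a retained-intron transcript, was 13936 bp away. Another 3 regions, with signals of 26.6, 17.2 and 17.1, were nearest to Kdm6b, the gene of a histone H3 lysine demethylase, at 31970 to 48125 bp from Chd3. No region lay within 10 kb of Chd3.

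Chd4, the main CHD motor of stem cells, had 5 regions, of which 3 clustered at Gapdh, a glycolytic gene, and 1 at Nop2, a ribosomal RNA methyltransferase gene. The strongest was on chromosome 6 from 125167317 to 125167612, with a signal of 100.3, 998 bp from the Gapdh TSS and 47698 bp from Chd4. It had a relaxed signal of 36.6 in replicate 1 and 64.1 in replicate 2, and a composite element 2.5 bp from the summit. The other Gapdh regions had signals of 41.3 and 28.8 and sites with 1 mismatch to the composite element, A10T in TGACTCAGCT and T5A in TGACACAGCA.

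The Nop2 region had a signal of 75.1 and lay 126 bp from the Nop2 TSS. It was in both replicates' thresholded lists, at 27.7 in replicate 1 and 43.3 in replicate 2. It had no site of the families searched, its best match to the T-MARE palindrome had 6 mismatches, and its window held 12 CpG dinucleotides at 66.3% GC. The region nearest to Chd4 itself was the weakest of the 5, with a signal of 10.6 at 1190 bp upstream, a relaxed signal of 10.9 in replicate 1 and no region in the relaxed list of replicate 2. The 4 stronger regions all had the higher rank in replicate 2. The Gapdh regions were 50937 to 53896 bp from the TSS of a protein-coding Chd4 transcript and entered through the TSS of a retained-intron transcript.

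The deacetylase genes had the fewest regions. Hdac2 had 1, on chromosome 10 from 37000947 to 37001242, inside the gene, 2923 bp from the TSS of a retained-intron transcript and 26525 bp from that of a protein-coding one. Its signal was 32.4, with 21.5 in replicate 1 and 11.1 in replicate 2, and it was in the thresholded list of replicate 1 alone. It held a composite element, TGAGTCAGCA on the minus strand, 26.5 bp from the summit. Hdac1 had none, and the nearest optimal summit was 135416 bp away. In the pooled relaxed list the highest signal within 50 kb of Hdac1 was 13.997, at 4144 bp, with 6.66 in replicate 1 and 4.41 in replicate 2. That candidate held no composite element, ARE core or MAF core and lay 207 bp from the TSS of Marcksl1. For comparison, 1140 optimal regions had a lower pooled signal.

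The MTA genes encode the scaffold. Mta3 had the strongest region of the 3, on chromosome 17 from 83668029 to 83668213, 38047 bp upstream of its TSS and 36221 bp from that of Kcng3, a potassium channel gene. Its signal was 96.7, with 50.2 in replicate 1 and 46.0 in replicate 2, and it was in both thresholded lists. It held a composite element, TGAGTCAGCA, 11.5 bp from the summit. The other Mta3 regions were intronic, with signals of 33.7, 17.7 and 16.8. The weakest of them also held a composite element, 3.5 bp from its summit, at a relaxed signal of 5.96 in replicate 1 and 10.6 in replicate 2.

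Mta2 and Mta1 had weaker regions, all of them nearest to other genes. At Mta2 the strongest, on chromosome 19 from 8929107 to 8929402, had a signal of 36.4, with 14.7 in replicate 1 and 20.5 in replicate 2. It lay 101 bp from the TSS of Rom1, a photoreceptor disc gene, and held a composite element 12.5 bp from the summit. The Mta2 regions of signal 17.7 and 4.14 overlapped each other by 96 bp at the start of Tut1, the gene of a terminal uridylyltransferase. They matched the same relaxed region in each replicate (11.4 in replicate 1 and 5.72 in replicate 2), so they do not count as separate sites in the replicates. Without the weaker one there were 27 regions, of which 12 lay within 1 kb of a TSS and 10 held none of the composite element, ARE core, MAF core and T-MARE palindrome. Mta1 had regions of signal 25.1 and 14.3, near Tmem121 and Tedc1, and neither was in the thresholded list of a replicate or within 50 kb of the TSS of a protein-coding Mta1 transcript.

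Mbd3, the subunit that sets this form of NuRD apart from the one with MBD2, had, besides Gatad2a, the only region within 1 kb of a TSS of its own. That region, on chromosome 10 from 80398678 to 80398973, lay in the gene 596 bp downstream of a TSS, in sequence of 66.3% GC. Its signal was 52.0, with 34.7 in replicate 1 and 18.5 in replicate 2, and both thresholded lists held it. The ARE core there, TGAGTGCGC, was 45.0 bp from the summit, and the best match to the T-MARE palindrome had 6 mismatches. A stronger region, of signal 66.9, lay 11595 bp from Mbd3 in an intron of Mex3d, an RNA-binding protein gene, with a MAF core 5.5 bp from the summit. It had 28.5 in replicate 1 and 37.8 in replicate 2. The weakest, of signal 21.1, was nearest to Mex3d too and held none of the sites.

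By their highest signal the genes came in the order Gatad2a (433.1), Chd3 (119.0), Chd4 (100.3), Mta3 (96.7), Mbd3 (66.9), Mta2 (36.4), Gatad2b (33.7), Hdac2 (32.4) and Mta1 (25.1), with no region at Hdac1. The replicates were processed separately, so they were set side by side by rank, as the share of a relaxed list at or above the region. Gatad2a stood in the top 0.0037% ± 0.00042 of the relaxed lists (mean ± SD, n = 2 replicates). Chd3 stood in the top 0.389% ± 0.030, Mta3 in the top 0.564% ± 0.0078 and Chd4 in the top 0.619% ± 0.438. Chd4 was in the top 0.929% in replicate 1 and the top 0.310% in replicate 2, a span that covers both Chd3 and Mta3, so Chd4 could not be ordered against either. In the relaxed lists Chd3 was above Mta3 in both replicates, at 0.410% and 0.368% for Chd3 and 0.569% and 0.558% for Mta3. In the thresholded lists of the second run their signals were 60.2 in replicate 1 and 57.9 in replicate 2 for Chd3, and 57.3 in replicate 1 and 63.5 in replicate 2 for Mta3, so there the order turned in replicate 2. Mbd3 (1.03% ± 0.363) overlapped Chd4. Mta2 (2.39% ± 0.768), Gatad2b (2.72% ± 1.01) and Hdac2 (2.99% ± 1.58) overlapped one another. Mta1 (6.66% ± 5.25) had the widest spread of these 9 strongest regions, and its mean ± SD overlapped those of Mta2, Gatad2b and Hdac2. Gatad2a was above all others in both replicates.

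**Figure D2:**
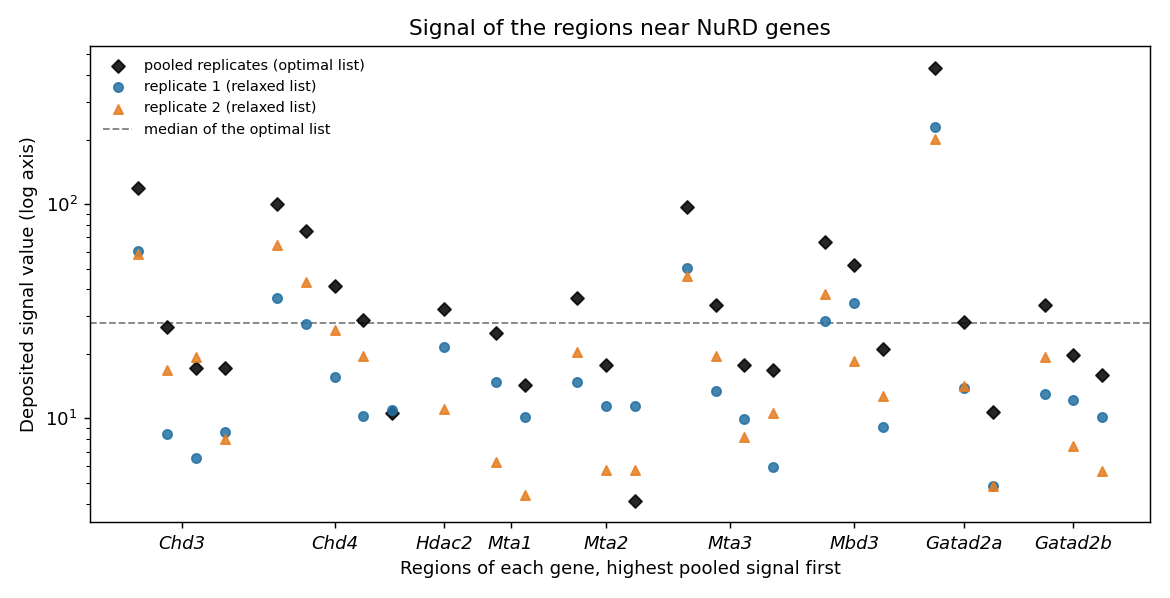
Deposited signal of the 28 regions, grouped by gene, on a log axis. Black diamonds are the optimal list (pooled replicates), blue circles and orange triangles the relaxed lists of replicates 1 and 2, and the dashed line is the median of the optimal list (27.9). The strongest Gatad2a region is the highest in all 3 lists, and 1 Chd4 region has no value in replicate 2.

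Presence in the replicates' lists followed the signal. Both thresholded lists contained 8 of the 28 regions, against 35.4% of all optimal regions. These 8 were the strongest regions at Gatad2a, Chd3 and Mta3, 3 of the 5 at Chd4, and 2 of the 3 at Mbd3. A further 6 were in the list of replicate 2 alone, 1 was in that of replicate 1 alone and 13 were in neither, against 17.6%, 8.94% and 38.2% of all optimal regions. All 7 regions with a signal of 50 or more were in both lists, as were 96.4% of all optimal regions of that strength. Of the 7 between the median and 50, 1 was in both (42.6% of all), and of the 14 below the median none was (2.19% of all).

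Of the 27 regions found in both relaxed lists, 15 had the higher rank in replicate 2 and 12 in replicate 1. Over all optimal regions 57.7% had the higher rank in replicate 2. The rank correlation of the replicates' signal was 0.69 over the 27 regions and 0.69 over the 16500 optimal regions in both relaxed lists. Both are descriptions: regions of the same libraries share their depth, and some of the 27 lie side by side. The optimal list was itself drawn from the relaxed lists by the irreproducible discovery rate. Neither correlation is therefore a free measure of how far the replicates agree. The overlapping Mta2 regions at Tut1 have the same values in each replicate. They still enter the rank counts and the correlation as if they were separate.

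Fewer of the summits held a MAF half-site than in the whole list, while the share with an AP-1 element was close to it. The composite element was within 50 bp of 6 of the 28 summits (21.4%, 95% Wilson interval 10.2 to 39.5), against 28.2% of the 16836 optimal regions on assembled chromosomes. With 1 mismatch allowed it was at 12 of 28 (42.9%), against 53.1% of all regions. The ARE core was at 14 summits (50%, interval 32.6 to 67.4), against 60.3%. The AP-1 element (TGACTCA or TGAGTCA), a part of the composite element, was at 11 (39.3%), against 37.8% of all regions. The MAF core was at 10 (35.7%, interval 20.7 to 54.2), against 62.8%, and the T-MARE palindrome with up to 2 mismatches at 6 (21.4%), against 39.2%. These counts overlap, because the ARE core, AP-1 element and MAF core all lie within each composite element. Intervals cover counting error only, and regions near the same gene are not independent.

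In windows 1000 bp to either side of the same summits the composite element was absent from all 56, and the ARE core was in 8 (14.3%). Over all regions these flanking shares were 0.0891% and 7.15%. The CREB-type element TGACGTCA and the ESRRB-type element TCAAGGTCA were at none of the 28 summits, and were at 0.279% and 0.398% of all. None of the composite element, ARE core, MAF core and T-MARE palindrome was found at 11 of the 28 summits (39.3%), against 20.2% of all regions.

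**Figure D3:**
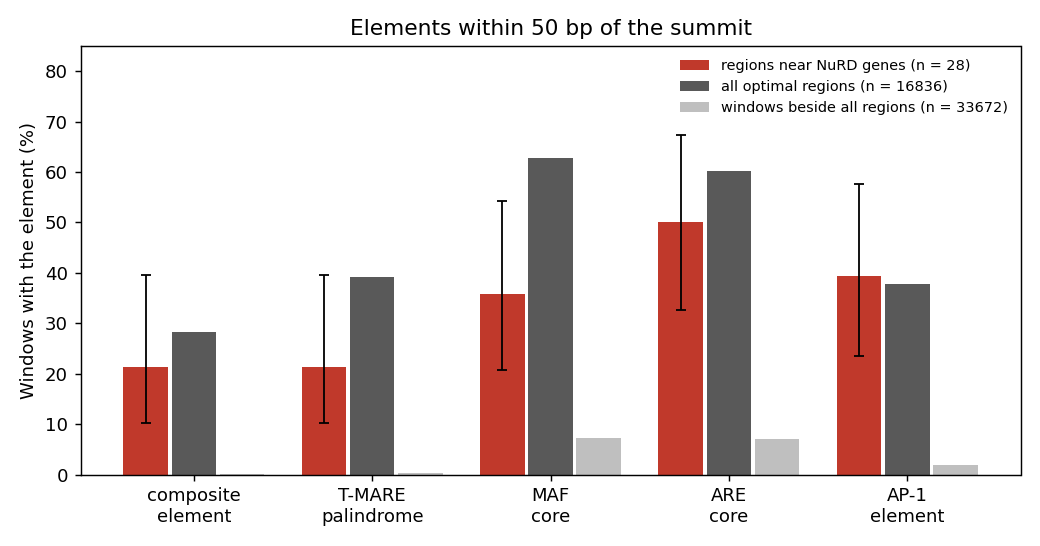
Share of 101-base windows with each element, in percent: red, the 28 regions near NuRD genes, with 95% Wilson intervals; dark grey, all optimal regions; light grey, windows 1000 bp to either side of all optimal regions. The MAF core is at 35.7% of the red group and 62.8% of all regions, and the AP-1 element at 39.3% and 37.8%.

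The elements were also counted on both sides of 1 kb from a TSS. The MAF core was at 3 of the 13 within 1 kb of a TSS (23.1%), against 44.6% of all such regions, and at 7 of the 15 farther away (46.7%), against 66.1%. The share was thus below that of all regions on both sides of the split, over few regions. The composite element was at 3 of 13 near a TSS (23.1%), against 17.2% of all such regions, and at 3 of 15 farther away (20%), against 30.2%. The ARE core was at 8 of 13 (61.5%), against 48.3%, and at 6 of 15 (40%), against 62.4%. Median GC of the window was 51.0% for the 28 regions, against 46.5% for all, and 4 of the 28 summits were in repeat-masked sequence (16.4% of all). The part of base composition in these shares was not tested.

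The signal followed the match to the T-MARE palindrome loosely in the whole list and without a clear order among the members, whose medians were 21.7 for the 4 with 2 mismatches, 33.7 for the 7 with 3, 17.1 for the 9 with 5 and 36.6 for the 4 with 6. Over all optimal regions the median signal was 97.6 with no mismatch, 43.7 with 1, 31.8 with 2, 28.3 with 3 and 19.2 with 6. None of the 28 matched fully. The 2 with 1 mismatch had signals of 119.0 at Chd3 and 36.4 at Mta2. The Gatad2a region lay far above the others of its class, at 433.1 where the middle 50% of regions with 3 mismatches ran from 20.2 to 45.2. The Nop2 region near Chd4 (75.1) and the intragenic Mbd3 region (52.0) ranked 76 and 132 of 1141 regions with 6 mismatches.

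**Figure D4:**
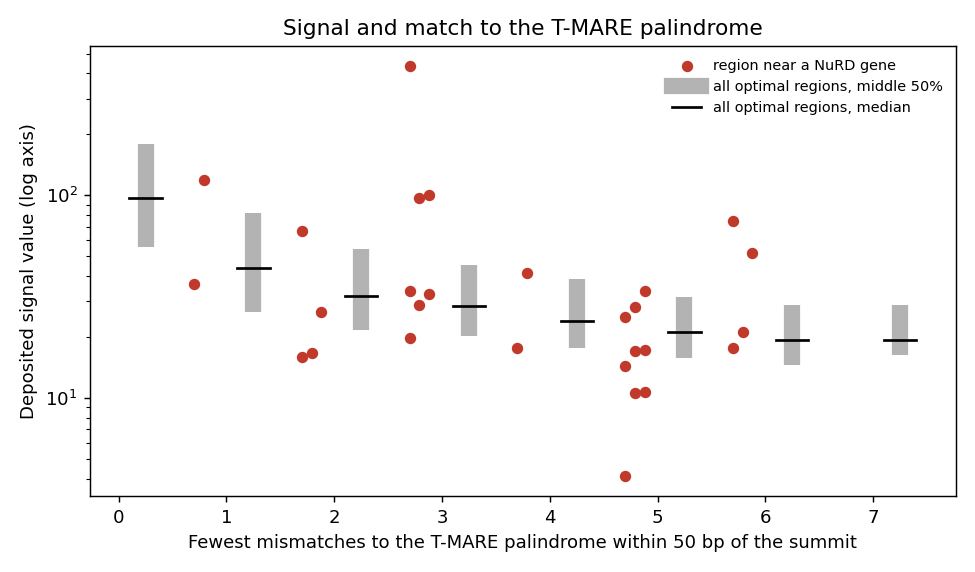
Deposited signal on a log axis against the fewest mismatches to the T-MARE palindrome within 50 bp of the summit. Red points are the 28 regions near NuRD genes. Grey bars are the middle 50% and black lines the medians of all optimal regions, which fall from 97.6 at 0 mismatches to 19.2 at 6.

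Other genes of the pathway and of related complexes were set beside the 59.3% of all protein-coding genes, and the 70.2% of those with 4 to 9 TSSs, that had a summit within 50 kb. Of the 6 other NuRD subunits and paralogues, 5 had a summit within 50 kb, and Cdk2ap1 did not. The highest signal was at Mbd2, the alternative to MBD3 (110.7). Of 8 partner genes that bring NuRD to chromatin or bind it, 4 had a summit, led by Pwwp2b (72.6), and Sall1, Zfp296, Pwwp2a and Kdm1a had none. Of 10 genes of other class I HDAC complexes, 8 had a summit, led by the corepressor gene Ncor1 (168.0). Of 10 genes of BAF-family remodellers, most of them esBAF subunits and with Brd9 included, all 10 did, led by Smarcc1 (300.4). The median of the highest signals, with genes without a region at 0, was 51.6 for the 10 members, 54.2 for the other NuRD subunits and 10.3 for the partners. It was 18.6 for the other HDAC complexes, 26.9 for the BAF-family genes and 20.6 for all protein-coding genes. The members had a median of 6.5 TSSs per gene, against 3.0 over all protein-coding genes. Genes with 4 to 9 TSSs had a median highest signal of 26.6.

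The edge of the 50 kb window fell among regions of other genes. Just inside it were the Chd3 region at 48125 bp (signal 17.1) and the Chd4 region at 47698 bp (100.3). Just outside were a region at 50390 bp from Chd4 (30.1), 873 bp from Ncapd2, and one at 53524 bp from Gatad2b (24.1), 1728 bp from Ints3.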

How the data were processed

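Per the labels, ChIP-seq of MAFK in ES-E14 cells gave 2 replicates, with regions on mm10. No aligner, peak caller or read filter is named in the sources used here. Notes the authors deposited beside each replicate describe a first run, in which relaxed lists of each replicate and of the pool led, through the irreproducible discovery rate, to the optimal and conservative lists. Thresholded lists of each replicate and of both came from a second run on other alignments, so a comparison of those with the optimal list crosses runs. The authors deposited a signal score per region with no stated scale, a scaled reproducibility score, a summit offset in bp and a −log10 q-value. No column of per-sample values was left unmapped.

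Summits were compared with all GENCODE vM21 TSSs of the members and, for the background, of every protein-coding gene on the assembled chromosomes. Sequences were read from RefSeq GRCm38.p6, the assembly of mm10, with samtools 1.23.1 and Python 3.11.15. Sites were searched within 50 bp of the summit, and overlap meant at least 1 bp. With several overlapping regions in a replicate the highest signal was used. The search and the distance count were tested on simulated data. No p-value was computed, since there was 1 group and the rule fixes the regions by position. The members and gene lists were chosen with earlier results of these data known. So was the named set: the strongest region of each gene and all at or above the median signal. Other pathway genes were named where they held the strongest region of their list. Genes without a region were named, after their values were seen, only among the other NuRD subunits and the partners. The split at a signal of 50, the split by distance to a TSS, the match with 1 mismatch and the ranks within classes of match were chosen after the values were seen. One older symbol (Mideas) was matched as Elmsan1. Coordinates are 1-based. Depth is unknown, so intervals cover counting error over regions only.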

Additional observations from a re-analysis of the deposited data

How the results depend on the processing

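Of the alternatives to the 8 summary values, 36 stayed within 1.5 times a count or within the replicate spread and 16 did not. Within 10 kb there were 10 regions, 1 with the composite element and 4 with the ARE core, at a median signal of 24.0. Within 100 kb 10 of 42 regions had the composite element and 24 the ARE core. The strongest 50% of the optimal list gave 14 regions, a median signal of 46.6 and 9 with the ARE core, and the conservative list a median signal of 32.4. Without replicate 1 or 2, taken as the thresholded list of the other replicate, the regions numbered 9 to 14, the genes with a summit 6 to 7, the composite elements 4 and 4, the ARE cores 7 to 9 and the other NuRD genes 7 and 7. These lists are from the second run, so the replicate, the run and the threshold change together and cannot be told apart. Within 25 bp of the summit 9 regions held the ARE core. The median rank was the top 2.97% of the relaxed lists and the top 43.1% of the thresholded lists, which hold fewer and stronger regions. With TSSs of protein-coding transcripts alone, 23 regions at 8 genes remained in the count. The list of the second run, an alternative chosen after seeing the data, gave 26 regions at 8 genes. No paired analysis was possible because there was 1 group and no test.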

Other observations

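A few regions near the NuRD genes were in other deposited lists and not in the optimal list. A region on chromosome 6 from 125165577 to 125165872, 48 bp from the TSS of Gapdh and within the Chd4 window, had a signal of 22.9 in the conservative list and 23.1 in the list of the second run. A region in Mta3, on chromosome 17 from 83808074 to 83808369 and 12800 bp from a TSS, had a signal of 19.7 in the conservative list. Neither held an ARE core or a composite element. The list of the second run held 2 more, of signal 15.5 in the Chd4 window and 17.6 in the Mta3 window, of which the one near Chd4 held an ARE core.

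Beyond the window, up to 100 kb, stronger regions lay near Mbd3 and Mta2 than within it. One of signal 187.7, on chromosome 10 from 80460332 to 80460569, was 60895 bp from Mbd3 and 26798 bp from Tcf3, the gene of a basic helix-loop-helix factor, and held a composite element. One of signal 167.7, on chromosome 19 from 8857736 to 8857965, was 84029 bp from Mta2 and 7061 bp from Lrrn4cl, and held neither a composite element nor an ARE core. At Gatad2a the next regions were 3 at Pbx4, 85428 to 89173 bp away, the strongest with a signal of 90.9.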
